A study of Homo sapiens with 4 samples.

Results

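The genes of megakaryocytes and platelets described here were GP1BA, GP1BB, GP9, ITGA2B, ITGB3, PF4, PPBP, VWF and THBS1. They were chosen by name and found through their Ensembl identifiers, and all 9 were present among the 20348 genes of the count table. RNA came from K562 cells, a line from a patient with chronic myeloid leukemia, and from THP-1 cells, a line from a patient with acute monocytic leukemia. Each parental line was kept for 72 h in 100 nM periplocin, a cardiac glycoside from a plant, or in the solvent DMSO, and poly-A RNA of the whole culture was sequenced. The sample titles call the controls blank, whereas the library names and the study's methods give DMSO. The study states a single biological replicate, so 4 libraries stood for 4 conditions (K562 DMSO, K562 periplocin, THP-1 DMSO and THP-1 periplocin) and no difference could be set against a spread between replicates.

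Library totals lay between 16381172 and 20622719 counts. The mitochondrially encoded share was 5.62% under DMSO and 2.07% under periplocin for K562, and 5.24% and 3.92% for THP-1. Ratios below compare 1 library with 1 library after scaling by trimmed mean of M values (TMM), and their 95% intervals are exact binomial (Clopper-Pearson) ones that cover counting error only. A gene was compared where the pair held at least 10 counts, and it was called higher or lower where the ratio reached 2 and the interval lay on 1 side of no change. Counts of 3 or fewer were taken as the floor, which corresponds to 0.183, 0.181, 0.145 and 0.169 counts per 1000000 counts of the library (CPM) in K562 DMSO, K562 periplocin, THP-1 DMSO and THP-1 periplocin. In bulk RNA of this kind, fewer cells that express a gene and less RNA per cell cannot be told apart.

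Platelets are shed by megakaryocytes, large polyploid cells of the bone marrow that share a progenitor with erythroid cells. On a damaged vessel wall the GPIb-IX complex captures the platelet on von Willebrand factor, the integrin αIIbβ3 then binds fibrinogen and links platelets to each other, and α-granules release chemokines and adhesive proteins. K562 cells are known for a latent ability to take on erythroid or megakaryocytic traits, while THP-1 cells belong to the monocytic lineage.

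Erythroid and monocyte markers differed between the lines. All 12 erythroid markers examined were over the floor in K562 DMSO and 6 of them in THP-1 DMSO. Of 12 monocyte markers, 10 were over it in THP-1 DMSO and 4 in K562 DMSO. Of 9 genes that define megakaryocytes (ITGA2B, GP9, GP1BA, PF4, PPBP, TUBB1, GP6, TREML1 and NRGN), 5 were over the floor in each of the 4 libraries. PF4 had 0 counts everywhere, and TREML1, a receptor stored in platelet granules, had 0 counts in all libraries except THP-1 periplocin, with 16. None of the 4 libraries thus held the complete set of these markers. The sum over the 9 markers went from 47.6 to 99.3 CPM in K562 and from 34.4 to 46.7 CPM in THP-1. Most of the K562 sum was TUBB1, the tubulin of the platelet rim, with 449 and 1446 counts, and most of the THP-1 sum was NRGN, a calmodulin-binding protein found in platelets, with 623 and 712. With periplocin against DMSO, 5 of the 9 markers were compared in each line. In K562, 1 was higher, TUBB1, and 2 were lower, ITGA2B and GP6 (20% and 40%, beside 9.88% and 12% of all genes). The K562 median log2 ratio was -0.09. In THP-1, 2 were higher and 1 lower (40% and 20%, beside 9.12% and 11.4% of all genes), and NRGN was not called.

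The 9 genes together had 1628 counts under DMSO and 4360 under periplocin in K562, and 135 and 193 in THP-1. GP1BB alone made up most of the K562 sums: without it the sums were 435, 254, 121 and 165 in the same order. The K562 sum thus was higher in periplocin with GP1BB and lower without it. Per kilobase of the longest transcript, GP1BB stood at 46.9 CPM in K562 DMSO, followed by ITGA2B at 2.31, GP1BA at 1.64, THBS1 at 1.63, ITGB3 at 0.458, PPBP at 0.171 and VWF at 0.0138. GP1BA and THBS1 were next to each other in that order and nearly equal. In THP-1 DMSO the same scale ran from GP1BA at 0.814 through GP1BB at 0.437, ITGA2B at 0.364, GP9 at 0.327, VWF at 0.181 and THBS1 at 0.0686 to ITGB3 at 0.0486. GP1BB, ITGA2B and GP9 rested there on 14, 25 and 6 counts, too few to order them.

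**Figure D1:**
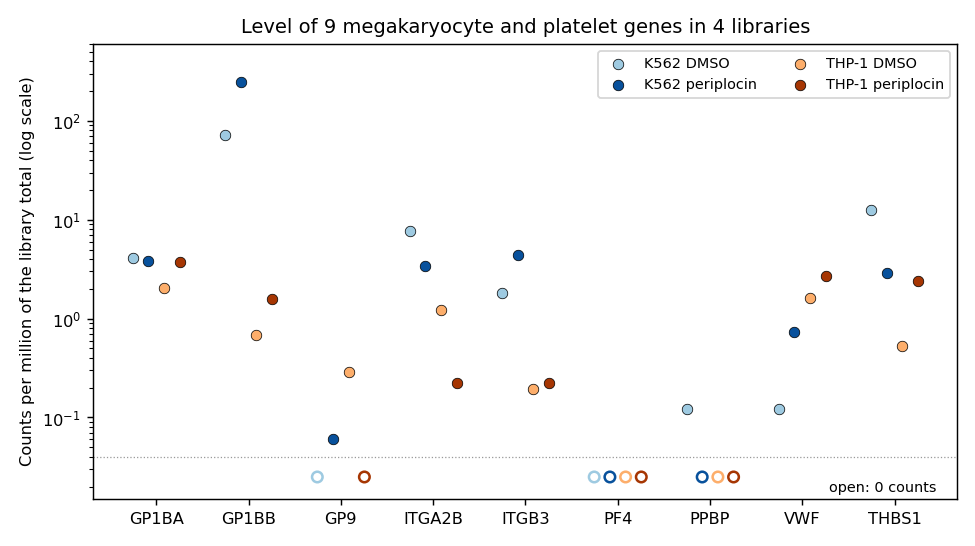
Level of the 9 megakaryocyte and platelet genes in each of the 4 libraries, in CPM of the library total on a log axis, 1 point per library and open circles below the dotted line for 0 counts. GP1BB in K562 lies above all other points, at 72.8 CPM in DMSO and 248 CPM in periplocin, while PF4 has 4 open circles.

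In K562 cells, periplocin against DMSO left the 9 genes moving in both directions. GP1BB, ITGB3 and VWF were higher, ITGA2B and THBS1 were lower, GP1BA was not called, and GP9, PF4 and PPBP had too few counts to compare. That made 3 higher and 2 lower of 6 compared, where over all 13076 genes compared 9.88% were called higher, 12% lower and 21.9% in either direction. The median log2 ratio of the 6 was 0.58, against -0.02 over all genes, and VWF passed the minimum of 10 counts only through its periplocin library.

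In THP-1 cells the same comparison gave 2 higher genes, GP1BB and THBS1, and 1 lower gene, ITGA2B, and GP1BB was not called when its counts were summed with those of the genes that share its exons. GP1BA and VWF were compared and not called, and GP9, ITGB3, PF4 and PPBP had too few counts. Over all 13680 genes compared in THP-1, 9.12% were called higher, 11.4% lower and 20.5% in either direction. The 5 compared genes had a median log2 ratio of 0.88, against -0.03 over all genes. With that limit for GP1BB, GP1BB and ITGA2B moved the same way in both lines, whereas THBS1 moved in opposite directions, as the plot of log2 ratios shows.

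**Figure D2:**
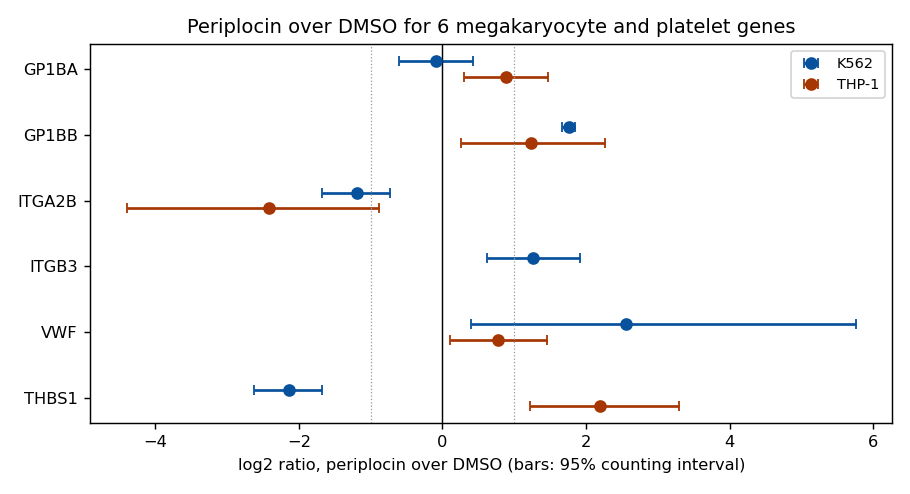
Log2 ratio of periplocin over DMSO for each gene with at least 10 counts in the pair, in K562 (blue) and THP-1 (brown), with 1 library per condition and bars for the 95% counting interval; dotted lines mark a 2-fold ratio and the VWF point in K562 is the ratio of 12 counts to 2. THBS1 lies at -2.14 in K562 and at 2.20 in THP-1, and the intervals of GP1BB and ITGA2B overlap between the lines.

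Sequences upstream of 4 of the 9 genes are shown because ITGA2B and THBS1 were called in both lines and GP9 and PPBP stood at or near 0, so that start regions of genes with unlike counts stand side by side. RefSeq windows (GRCh38.p14) were matched by symbol for 5 of the 9 genes, and that of GP1BB is not shown because all 250 bases lie in annotated exons. Capitals mark matches, on either strand, to the GATA letters AGATAA (also with T first, with G last or with both) and to the ETS letters GGAAGT, and the bases end next to the RefSeq start or, for GP9 and PPBP, next to the first annotated exon.
ITGA2B, chr17:44389650-44389899, minus strand: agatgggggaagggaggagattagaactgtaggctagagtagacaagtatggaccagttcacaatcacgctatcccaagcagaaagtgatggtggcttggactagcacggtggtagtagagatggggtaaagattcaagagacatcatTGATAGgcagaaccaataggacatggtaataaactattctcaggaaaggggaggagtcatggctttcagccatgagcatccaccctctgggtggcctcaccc
THBS1, chr15:39580829-39581078, plus strand: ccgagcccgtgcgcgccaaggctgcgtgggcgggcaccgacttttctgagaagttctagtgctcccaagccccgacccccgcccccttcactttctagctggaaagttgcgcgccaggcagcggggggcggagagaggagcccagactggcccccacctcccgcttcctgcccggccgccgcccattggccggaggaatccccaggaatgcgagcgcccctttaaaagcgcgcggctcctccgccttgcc
GP9, chr3:129060529-129060766, plus strand: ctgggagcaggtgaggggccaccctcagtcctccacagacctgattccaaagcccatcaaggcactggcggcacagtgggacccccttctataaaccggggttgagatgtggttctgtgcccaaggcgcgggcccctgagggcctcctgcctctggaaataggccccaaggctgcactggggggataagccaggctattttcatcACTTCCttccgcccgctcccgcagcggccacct
PPBP, chr4:73988198-73988440, minus strand: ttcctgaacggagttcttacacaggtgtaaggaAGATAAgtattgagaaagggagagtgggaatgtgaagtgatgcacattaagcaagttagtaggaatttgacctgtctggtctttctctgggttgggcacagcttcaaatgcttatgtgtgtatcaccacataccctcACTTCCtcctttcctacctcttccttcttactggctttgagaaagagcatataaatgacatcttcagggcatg

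ITGA2B, which fell in both lines, held 1 GATA match (TGATAG) at positions -102 to -97, counted back from the RefSeq start, which lies upstream of the GENCODE start at 44389505. The ITGA2B bases between the RefSeq and GENCODE starts were neither shown nor searched. PPBP held a GATA match (AGATAA) at -217 to -212 and an ETS match at -80 to -75, and GP9 an ETS match at -45 to -40. GP9 and PPBP also held the RUNX letters TGTGGT and the TATA letters TATAAA, read on both strands. The GP1BB window held 1 GATA and 1 RUNX match, and the THBS1 window held none of the 4 motifs. Of 35116 RefSeq windows of the same length, 22.3% held a GATA match, 19.5% an ETS match, 11% a RUNX match and 10.7% a TATA match. These letters describe the windows and are not evidence of a bound factor.

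GP1BA encodes the chain of the GPIb-IX complex that binds von Willebrand factor (ENSG00000185245, chromosome 17 of GRCh38, 4932297 to 4935030, plus strand). It had 67 counts under DMSO and 64 under periplocin in K562, and 42 and 66 in THP-1. The K562 libraries differed by less than counting error, with a log2 ratio of -0.09 (-0.61 to 0.42), and the THP-1 ratio of 0.88 (0.30 to 1.48) stayed below the 2-fold line. Its exons overlap those of CHRNE, a subunit of a muscle acetylcholine receptor on the opposite strand, over 97 bp, and CHRNE had 1, 3, 13 and 21 counts in K562 DMSO, K562 periplocin, THP-1 DMSO and THP-1 periplocin. Whether reads were counted by strand is not given in the sources used here, and the part of CHRNE reads in the GP1BA counts was not tested.

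GP1BB encodes the chain that is joined to GP1BA by disulfide bonds (ENSG00000203618, chromosome 22, 19722945 to 19724771, plus strand). Its counts were 1193 under DMSO and 4106 under periplocin in K562, and 14 and 28 in THP-1. The periplocin library was higher in each line, 3.38-fold in K562 (log2 1.76, 1.66 to 1.85) and 2.35-fold in THP-1 (log2 1.23, 0.26 to 2.27). The K562 levels were far above those of THP-1, and the response in THP-1 minus that in K562 was -0.53 on the log2 scale (-1.46 to 0.40), an interval that spans equal responses.

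The GP1BB counts could not be assigned to that gene alone. Of its 1553 exonic bases, 0 are free of another annotated gene on the same strand: SEPTIN5, a septin of the cytoskeleton that lies just upstream, shares 1006 of them and the SEPT5-GP1BB read-through gene shares all 1553. SEPTIN5 went from 4631 to 11096 counts in K562, a 2.35-fold rise, and from 247 to 244 in THP-1, with a log2 ratio of 0.21. The read-through gene went from 1333 to 1505 counts in K562 (log2 0.15) and from 62 to 26 in THP-1 (log2 -1.02). The 3 genes therefore did not move in parallel. Summed over the 3 genes, a value added after seeing the data, the counts went from 7157 to 16707 in K562, a 2.29-fold rise (log2 1.20, 1.16 to 1.24). In THP-1 the sum went from 323 to 298, and its log2 ratio of 0.11 (-0.12 to 0.35) was not called. GP1BB took 16.7% of the sum under DMSO and 24.6% under periplocin in K562, and 4.33% and 9.40% in THP-1. The rise in K562 thus was present in the locus as a whole, and the rise in THP-1 was present only in the counts assigned to GP1BB.

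**Figure D3:**
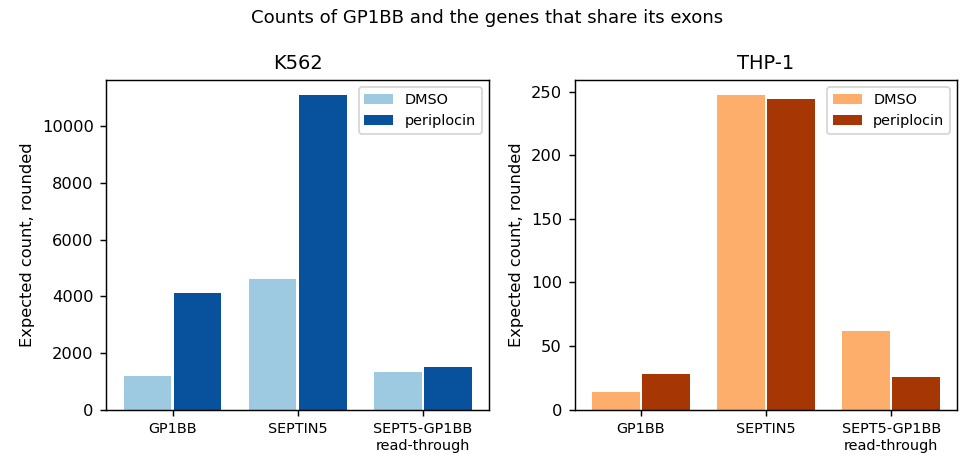
Expected counts, rounded to whole numbers, of GP1BB and of the genes that share its exons, SEPTIN5 and the SEPT5-GP1BB read-through, in K562 (left) and THP-1 (right), 1 bar per library with separate linear axes that start at 0. In K562 GP1BB and SEPTIN5 are higher in periplocin, and in THP-1 SEPTIN5 stays near 247 counts while GP1BB goes from 14 to 28.

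Where the average level reached 10 CPM, the pattern of GP1BB over the 4 libraries was most like that of H1-2, a linker histone, of ABCG2, a membrane transporter, and of LIPH, a lipase. The root mean square difference of log2 CPM, centred on the mean of the 4 libraries, was 0.136 for H1-2, 0.221 for ABCG2 and 0.267 for LIPH among 9781 genes ranked. H1-2 had 2777, 8414, 33 and 77 counts in K562 DMSO, K562 periplocin, THP-1 DMSO and THP-1 periplocin. ABCG2 had 218, 637, 0 and 2 and LIPH had 284, 610, 1 and 5 in the same order. All of them were high in K562, higher there in periplocin, and low in THP-1, a likeness that rests on 4 points.

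GP9 encodes the small glycoprotein IX that completes the complex (ENSG00000169704, chromosome 3, 129060767 to 129062406, plus strand). It had 0 counts under DMSO and 1 under periplocin in K562, and 6 and 0 in THP-1. No library was far above the floor, and no ratio was formed because no pair reached 10 counts. Of the complex, GP1BA thus had counts in all libraries and GP9 almost none, and the counts assigned to GP1BB in all libraries could not be told from those of its neighbours.

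ITGA2B encodes the αIIb chain of the fibrinogen receptor, the integrin known as CD41 and a marker of the lineage (ENSG00000005961, chromosome 17, 44372180 to 44389505, minus strand). It had 126 counts under DMSO and 56 under periplocin in K562, and 25 and 4 in THP-1. The periplocin library was 2.29-fold lower in K562 (log2 -1.20, -1.68 to -0.73) and 5.33-fold lower in THP-1 (log2 -2.41, -4.40 to -0.88). ITGA2B was thus the gene of the 9 that fell in both lines, and the THP-1 value rests on 4 counts in periplocin. The response in THP-1 minus that in K562 was -1.22 (-2.81 to 0.37), which spans equal responses.

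ITGB3 encodes the β3 chain, which pairs with ITGA2B in platelets and with the αv chain in other cells (ENSG00000259207, chromosome 17, 47253846 to 47311816, plus strand). K562 had 30 counts under DMSO and 73 under periplocin, and THP-1 had 4 in each library. It rose 2.39-fold in K562 (log2 1.26, 0.62 to 1.92), the direction opposite to that of its partner chain in the same libraries. In THP-1 the pair held 8 counts and was not compared. A read-through gene, AC068234.1, shares 2266 exonic bp with ITGB3 and leaves 48.4% of the ITGB3 exonic bases unshared. That gene had 0, 6, 1 and 1 counts in K562 DMSO, K562 periplocin, THP-1 DMSO and THP-1 periplocin.

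PF4 and PPBP encode the chemokines platelet factor 4 and pro-platelet basic protein, which megakaryocytes pack into α-granules. PF4 (ENSG00000163737, chromosome 4, 73981077 to 73982124, minus strand) had 0 counts in all 4 libraries, which allows a level of up to 0.183 CPM in K562 DMSO and 0.145 CPM in THP-1 DMSO. PPBP (ENSG00000163736, chromosome 4, 73987038 to 73988197, minus strand) had 2 counts in K562 DMSO and 0 in the other libraries. Neither chemokine was detectable over the floor of 3 counts, with or without periplocin, so a response could not be seen at this depth.

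VWF encodes von Willebrand factor, the multimeric protein on which platelets are captured, made by megakaryocytes and endothelial cells (ENSG00000110799, chromosome 12, 5948874 to 6124770, minus strand). It had 2 counts under DMSO and 12 under periplocin in K562, and 33 and 48 in THP-1. The K562 ratio was 5.89 (1.31 to 54.2), an interval made wide by the 2 counts in DMSO, or 3.93 with those counts set to the floor of 3, and the THP-1 log2 ratio of 0.77 (0.10 to 1.46) was not called. All levels were low, and those of THP-1 were the higher ones. Endothelial markers were no better represented. Of 10 such genes, K562 had 3 over the floor in DMSO and 4 in periplocin, and THP-1 had 5 and 0. They summed to 3.97, 2.48, 2.57 and 0.677 CPM in the same order, and CDH5 and EMCN, which define endothelial cells, had 0 counts in all 4 libraries.

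THBS1 encodes thrombospondin 1, an adhesive glycoprotein of the α-granule that many other cells also secrete (ENSG00000137801, chromosome 15, 39581079 to 39599466, plus strand). Its counts were 208 under DMSO and 48 under periplocin in K562, and 11 and 43 in THP-1. It fell 4.41-fold in K562 (log2 -2.14, -2.63 to -1.68) and rose 4.59-fold in THP-1 (log2 2.20, 1.22 to 3.30). The lines thus started far apart in DMSO and had nearly the same count in periplocin. The responses differed by 4.34 on the log2 scale (3.28 to 5.40), or 20.2-fold, beyond counting error. FSIP1 on the opposite strand shares 448 exonic bp with THBS1 and had 3, 0, 2 and 10 counts in K562 DMSO, K562 periplocin, THP-1 DMSO and THP-1 periplocin. The part of FSIP1 reads in the THBS1 counts was not tested. The GP1BA responses, -0.09 and 0.88, also differed beyond counting error, by 0.98 (0.23 to 1.72), although neither was called.

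Marker sums of other lineages moved in the same libraries. In K562 the 12 erythroid markers went from 2143 to 11084 CPM in sum and all 12 were called higher (100%, beside 9.88% of all genes). SLC4A1, the red cell anion exchanger, went from 1257 to 22563 counts. In THP-1 the erythroid sum was 250 and 243 CPM, nearly all of it TFRC, the transferrin receptor of dividing cells. The 12 monocyte markers went from 633 to 960 CPM in sum there. Of the 10 compared, 5 were called higher and 3 lower (50% and 30%, beside 9.12% and 11.4% of all genes). CD14, the lipopolysaccharide co-receptor, had the largest ratio of those called at a mean of at least 5 CPM. It went from 8 to 382 counts in THP-1, and the monocyte sum in K562 went from 66.7 to 109 CPM. In K562, 4 of the 12 monocyte markers were over the floor in DMSO and 6 in periplocin. Of the 6 compared there, 3 were called higher and 1 lower (50% and 16.7%, beside 9.88% and 12% of all genes). The part of these lineage markers in the changes of the platelet genes was not tested.

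Transcription factors of megakaryocytes were present in different sets in the lines. GATA1, the factor shared by erythroid cells and megakaryocytes, had 2715 counts under DMSO and 4959 under periplocin in K562, and 3 and 2 in THP-1. FLI1, an ETS factor that drives the megakaryocytic over the erythroid fate, showed the reverse, with 3, 2, 4330 and 3996 counts. No library thus held both at more than the floor. RUNX1 had 2855, 770, 5217 and 4468 counts and was lower in K562 periplocin (log2 -1.92, -2.03 to -1.80) and level in THP-1 (log2 0.01, -0.05 to 0.06). GFI1B, a repressor needed for both red cells and platelets, had 1353, 1557, 2 and 0 counts, and NFE2, which platelet release requires, had 4128, 5949, 316 and 166. Neither was called in K562, and NFE2 was not called in THP-1.

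The list of 19 factors was not limited to megakaryocytes and included erythroid and progenitor factors. In K562, 17 were compared, and 3 were higher and 3 lower (17.6% each, beside 9.88% and 12% of all genes). Their median log2 ratio was 0.23. KLF1, the erythroid factor, also counted among the erythroid markers, went from 1428 to 4883 counts and MYB, a factor of progenitors, from 8071 to 2592. TAL1 and LDB1, which act in a complex with GATA1, were the other higher ones, at log2 ratios of 1.21 and 1.46. RUNX1 and ETV6 were the other lower ones, ETV6 at a log2 ratio of -1.19. In THP-1, 14 were compared, and 0 were higher and 2 lower (0% and 14.3%, beside 9.12% and 11.4% of all genes), with a median of -0.20. GATA2, a progenitor factor, was one of the lower ones there and went from 306 to 98 counts.

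Other platelet receptors moved differently in the lines. In K562, 17 of 26 were compared, and 2 were higher and 7 lower (11.8% and 41.2% of those compared, beside 9.88% and 12% of all genes), with a median log2 ratio of -0.24. CD36, a receptor for thrombospondin and lipids, rose from 35 to 218 counts. TBXA2R, the thromboxane receptor, fell from 358 to 47, and FCGR2A, the Fc receptor of platelets, whose reads may be split with near-identical paralogs, fell from 1033 to 282. P2RX1, F2RL3, PEAR1 and GP6 also fell, at log2 ratios of -1.77, -1.36, -1.05 and -1.24. MPIG6B, the other higher gene, went from 10 to 28 counts (log2 1.46, 0.37 to 2.67). In THP-1, 20 were compared, and 10 were higher and 4 lower (50% and 20%, beside 9.12% and 11.4% of all genes), with a median of 0.83. CD36 rose there from 616 to 2162 counts, ADRA2A, the adrenergic receptor of platelets, from 116 to 326, and ITGA6, a laminin receptor chain, from 168 to 395. The 4 lower ones were ITGA2, from 126 to 15 counts, F2R, from 130 to 54, PTGIR, from 57 to 22, and PEAR1, from 16 to 0. CD36, which monocytes and macrophages also make, thus rose in both lines.

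Of 21 genes of the α-granule, the dense granule and granule formation, 17 were compared in K562, and 1 was higher and 2 were lower, with a median log2 ratio of 0.09. PDGFB, a growth factor of the α-granule, went from 37 to 133 counts, and RAB27A, a GTPase of granule secretion, from 2164 to 798. In THP-1, 15 were compared, 4 were higher and 4 lower, with a median of -0.17. F13A1, the coagulation factor XIII A chain, went from 1018 to 228, TIMP1, a protease inhibitor, from 1464 to 3025, and VPS33B, a protein needed to form α-granules, from 165 to 65. The shares higher and lower were 5.88% and 11.8% in K562, beside 9.88% and 12% of all genes, and 26.7% each in THP-1, beside 9.12% and 11.4%. The K562 shares were thus near or below those of all genes.

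For the platelet cytoskeleton and signalling, 24 of 27 genes were compared in K562, 3 were higher and 3 lower (12.5% each, near the 9.88% and 12% of all genes). PTGS1, cyclooxygenase 1, rose from 358 to 2713 counts and TUBB1 3.16-fold. RASGRP2, the exchange factor that activates integrins through RAP1, fell from 247 to 32, and LCP2, the adaptor SLP-76, from 987 to 112. In THP-1, 25 were compared, 6 were higher and 1 lower (24% and 4%, beside 9.12% and 11.4% of all genes). DAB2 rose there from 381 to 1479 and TBXAS1, thromboxane synthase, from 48 to 257, while RASGRP2 fell from 2235 to 661. RASGRP2 thus fell in both lines, as ITGA2B did. Of 15 ligands and partners, 9 were compared in each line, with 2 higher and 1 lower in K562 (22.2% and 11.1%, beside 9.88% and 12% of all genes). In THP-1, 2 were higher and 3 lower (22.2% and 33.3%, beside 9.12% and 11.4%), and THBS3, a relative of THBS1, went from 265 to 109 counts.

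**Figure D4:**
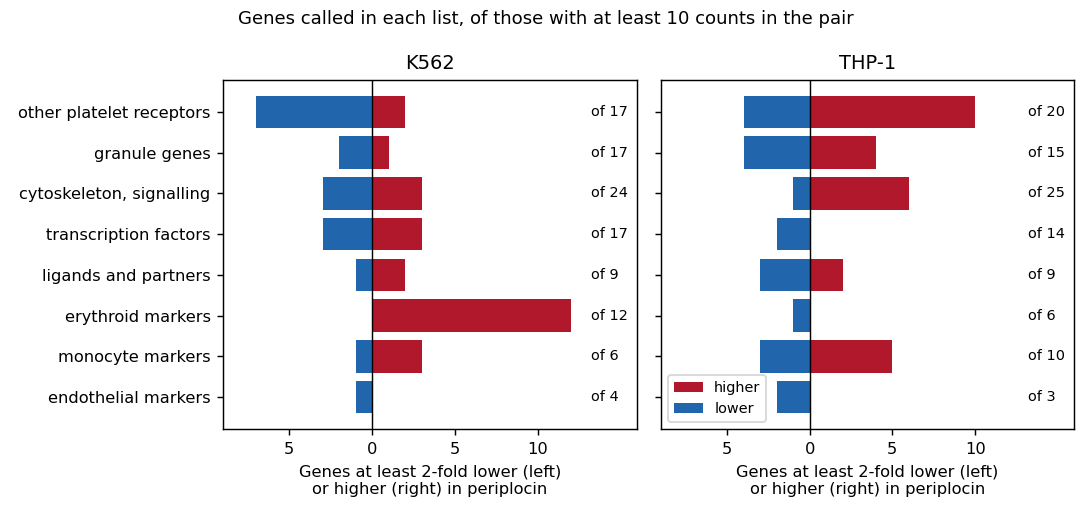
Number of genes called at least 2-fold lower (left of 0, blue) or higher (right of 0, red) in periplocin against DMSO in each gene list, in K562 and THP-1, with 1 library per condition and the number compared at the right of each row. Platelet receptors other than the 9 genes have 7 lower and 2 higher of 17 in K562 and 4 lower and 10 higher of 20 in THP-1, and all 12 erythroid markers are higher in K562.

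The starting levels of most of the 9 genes differed between the lines. THP-1 DMSO against K562 DMSO gave 1 higher and 4 lower of 6 compared, where over all 14137 genes compared 24.4% were higher, 21.7% lower and 46.1% in either direction. GP1BB was 98.7-fold lower in THP-1 (log2 -6.62, -7.50 to -5.87), or log2 -4.68 for the sum over its locus, and THBS1 was 21.9-fold lower (log2 -4.45, -5.48 to -3.58). ITGB3 and ITGA2B were 8.68-fold and 5.84-fold lower (log2 -3.12, -5.08 to -1.61, and -2.55, -3.23 to -1.92). VWF was the higher gene, with a ratio of 14.2 (3.64 to 123) over 2 counts in K562, or 9.50 with those 2 counts set to the floor of 3, and it reached 10 counts only through THP-1. GP1BA, at -0.89 (-1.48 to -0.31), was not called. Scaling to library totals in place of TMM shifted the median of all genes by -0.12 in this comparison and carried GP1BA across the 2-fold line, to -1.01.

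The only fit with an error term took all 4 libraries together, with terms for line and for drug and 1 residual degree of freedom, so that its error is how far the lines differ in response. By edgeR's quasi-likelihood test with Benjamini-Hochberg adjustment it called 0 of 13584 genes (0%), although 1538 had an unadjusted p under 0.05, and DESeq2 with the same terms called 126. DESeq2 gave no adjusted p to 1844 of the 13584 genes. GP1BB had a fitted log2 fold change of 1.57 with an edgeR quasi-likelihood adjusted p of 0.355, and it was higher in periplocin in both lines. ITGA2B had -1.66 with an edgeR adjusted p of 0.460 and was lower in both lines. THBS1, which moved in opposite directions, had -0.14 with an edgeR adjusted p of 0.976. GP1BA, ITGB3 and VWF had edgeR adjusted p values of 0.840, 0.707 and 0.573, and GP9, PF4 and PPBP were below the filter of this fit. GP1BB was the 1 gene of the 6 that DESeq2 called, with an adjusted p of 0.0365, and its adjusted p over the alternatives ran from 0.0365 to 0.380. These fits used the counts assigned to GP1BB and were not run on the sum over its locus. That sum was not called in THP-1, with a log2 ratio of 0.11.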

How the data were processed

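RNA of 4 libraries was analysed, 1 each for K562 DMSO, K562 periplocin, THP-1 DMSO and THP-1 periplocin. The authors prepared poly-A libraries for paired-end sequencing. The methods name the T7 platform and the labels an Illumina one. The deposited table held an expected count per gene and library from the authors, neither normalized nor pooled, with 87.4% to 88.3% whole values and 0 unused columns. The submitters' processing notes name HISAT2, StringTie 1.3.1 and hg38, without roles. Expected counts were rounded to whole numbers. Of 20348 identifiers, 20118 were found in GENCODE release 29 (GRCh38) and 20334 had symbols.

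Ratios used edgeR 4.0.16 TMM factors over each pair (R 4.3.3). Intervals were computed with scipy 1.17.1, and figures with matplotlib 3.10.9. The fit over 4 libraries (edgeR quasi-likelihood, Benjamini-Hochberg adjustment over the genes that reached 10 counts in 2 or more libraries) was set beside DESeq2 1.42.0. Steps were tested on simulated data. Alternatives were other scalings, filters, folds of 1.5 and 4, a prior count of 2, unrounded counts and, added after seeing the data, the sum over the GP1BB locus.

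The 9 genes and the 9 other lists were chosen with earlier results of these data known. Some genes of these lists are not reported here and were left out of the counts. Named genes were the 9 genes, those overlapping or adjoining them, GATA1, RUNX1, FLI1, GFI1B and NFE2, the 3 called genes per list and line with the largest log2 ratio among those with a mean of at least 5 CPM, and the 3 genes most like GP1BB. TREML1, CDH5, EMCN, TAL1, LDB1, ETV6, P2RX1, F2RL3, PEAR1, GP6, MPIG6B, ITGA2, F2R, PTGIR, PDGFA and the marker genes outside that rule were named after their values were seen.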

Additional observations from a re-analysis of the deposited data

Results flagged for a closer look

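THBS1 and 6 listed genes were called in opposite directions in the lines, with 1 library per condition, so the difference was not tested against replicates. The share of all genes called in opposite directions is not given here. Of all genes compared, 21.9% were called in K562 and 20.5% in THP-1, in either direction. The value given is the log2 ratio in THP-1 minus that in K562. It was 4.34 for THBS1, which fell in K562 and rose in THP-1. The thromboxane receptor TBXA2R (4.53) and the thrombin receptor F2RL3 (3.70) moved in the same directions as THBS1. F2RL3 had 544 and 216 counts in K562 DMSO and periplocin and 22 and 95 in THP-1. FCGR2A (2.92) and PDGFA (3.30) likewise fell in K562 and rose in THP-1, PDGFA from 129 to 29 and from 27 to 50 counts. SLC4A1 (-5.82) rose in K562 and fell in THP-1, from 15 to 4 counts. FCGR1A had a value of 3.35 with its 2 counts in K562 periplocin set to the floor of 3.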

How the results depend on the processing

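For the 9 genes, 149 values under the alternatives stayed within their counting intervals, 3 moved and 0 reversed. The 3 were the sum over the GP1BB locus, with log2 ratios of 1.20 in K562, 0.11 in THP-1, where the call was lost, and -4.68 between the lines in DMSO. Many of the 149 values could not move, because the filters and folds change the calls or the genes compared and leave the ratio as it was. The other scalings gave 51 values, of which 0 lay outside the interval and 2 changed their call, both for GP1BA between the lines. A fold of at least 4 left 371 higher and 450 lower genes in K562, with 0 and 1 of the 9 genes. In THP-1 it left 415 and 339, with 1 of the 9 genes higher and 1 lower, and between the lines in DMSO it left 2147 and 1701. A fold of at least 1.5 gave K562 counts of 2442 and 2755 of 13076 genes, with 3 higher and 2 lower of the 6 compared here. In THP-1 it gave 2330 and 2826 of 13680 genes, with 4 higher and 1 lower of the 5 compared here. A mean of at least 1 CPM left 0 of the 9 genes lower in THP-1 and 0 higher between the lines. The reason was that ITGA2B and VWF, in that order, were then not compared. For the same reason VWF was lost in K562, which left 2 higher, and ITGB3 between the lines, which left 3 lower. Over all genes this filter left 1048 higher and 1368 lower in K562, 994 and 1296 in THP-1, and 2937 and 2708 between the lines. Without a filter edgeR's fit called 2 of 17197 genes, and DESeq2 with the filter called 126 of 13584, of which 1844 were given no adjusted p. No paired analysis was possible because each condition had 1 library and the labels give no replicate numbers (the fit over 4 libraries compares periplocin with DMSO within each line through its term for line), and no library could be left out for the same reason. Depth limits GP9, PF4, PPBP and VWF in K562, and GP1BB counts depend on how reads shared with its neighbours were divided.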

Other observations

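TREML1 went from 0 to 16 counts in THP-1, at least 6.26-fold higher with the 0 set to a floor of 3 counts in that library, and stayed at 0 in K562. PEAR1, a platelet contact receptor, dropped from 16 counts to 0 in THP-1 and was at least 4.55-fold lower against the same floor, and from 263 to 129 in K562. FGG, the fibrinogen γ chain, went from 18 to 0 in K562, at least 6.11-fold lower, and was at 0 in both THP-1 libraries. ESAM, a junction protein of platelets and endothelium, went from 26 to 142 counts in THP-1 and had 22 in each K562 library. These genes were chosen after their values were seen and rest on 1 library per condition.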
